A study of Mus musculus with 11 samples.

Results

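The insulin-like growth factor binding proteins *Igfbp1* to *Igfbp7*, the receptors *Igf1r* and *Insr* and the adaptor *Irs1* were followed through the RNAseq of AML12 cells, a line of mouse hepatocytes. These 10 genes were taken by their symbols from a count table of 24849 genes, in which each of them had 1 entry named by its symbol. Whole-transcriptome counts came from 4 KO, 3 WT and 4 KI libraries. The WT cells were unedited AML12. In the KO cells *Txndc5*, which encodes a thioredoxin-domain protein of the endoplasmic reticulum, was disrupted by Cas9 with a donor plasmid that carries puromycin resistance. Stable cells were selected with puromycin, and the labels call this genotype a knockdown. The KI cells were labelled as overexpressing TXNDC5 from the ROSA26 safe harbour, and how many clones stand behind either edited line was not given. The medium that the methods describe for AML12 held fetal bovine serum, insulin, transferrin, selenium and dexamethasone, and culture of the KI cells is not described apart from it. The replicates were numbered 5 to 8, and WT 5-6 was a single library. Nothing in the labels says that the libraries came from separate cultures, so the p-values measure the spread between these libraries, which may be technical.

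Insulin and the insulin-like growth factors (IGF) act through related receptor tyrosine kinases. INSR binds insulin, IGF1R binds IGF1 and IGF2, and both phosphorylate docking proteins such as IRS1, which recruit phosphatidylinositol 3-kinase and so turn on AKT. AKT in turn keeps FOXO transcription factors out of the nucleus. The IGF binding proteins are secreted carriers that hold IGF1 and IGF2 away from the receptor or prolong their life, and proteases release the ligand by cutting them. IGFBP3 is the main carrier in plasma, IGFBP4 mostly inhibits IGF action, and IGFBP7 binds IGF weakly and is found in the matrix around cells. In liver, *Igfbp1* is a classical hepatocyte gene that insulin represses and glucocorticoids induce, and *Igfbp2* is also made by hepatocytes.

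On the mouse genome build GRCm38 (GENCODE M21), *Igfbp1* lies on the plus strand of chromosome 11 at 7197782 to 7202546. *Igfbp3* follows on the minus strand at 7206086 to 7213923, with a gap of 3539 bp between the genes. *Igfbp4* lies on the same chromosome at 99041244 to 99054392, on the plus strand. *Igfbp2* (72824503 to 72852474, plus strand) and *Igfbp5* (72857932 to 72874884, minus strand) are a second pair of neighbours, on chromosome 1, with a gap of 5457 bp. *Irs1* is on the minus strand of the same chromosome at 82233101 to 82291416. *Igfbp6* is on chromosome 15 at 102144362 to 102149511 (plus strand), *Igfbp7* on chromosome 5 at 77349240 to 77408041 (minus strand), *Igf1r* on chromosome 7 at 67952827 to 68233668 (plus strand) and *Insr* on chromosome 8 at 3122061 to 3279617 (minus strand). The paired genes share no position, but the counting method and its use of strand were not given in the sources used here.

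Promoter windows of RefSeq (GRCm38.p6), 300 bases with 250 before and 50 after the transcription start, were matched for 9 of the 10 genes, and *Insr* had no entry. Of these, 3 are shown: *Igfbp1* because it was over the floor of 3 counts in only 1 library and carries the core of the insulin response element, *Igfbp3* because it is its neighbour and was tested, and *Irs1* because it was higher in the KO cells and carries the same core more than once. Each reads 5′ to 3′ along the gene's own strand, at chr11:7197537-7197836 (plus), chr11:7213874-7214173 (minus) and chr1:82291390-82291689 (minus). Capitals mark the motifs searched, on both strands.
*Igfbp1*: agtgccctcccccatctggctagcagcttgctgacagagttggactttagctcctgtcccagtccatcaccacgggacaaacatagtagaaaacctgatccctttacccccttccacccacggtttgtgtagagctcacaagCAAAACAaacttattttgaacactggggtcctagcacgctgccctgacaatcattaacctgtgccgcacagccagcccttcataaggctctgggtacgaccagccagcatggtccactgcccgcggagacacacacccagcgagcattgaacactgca
*Igfbp3*: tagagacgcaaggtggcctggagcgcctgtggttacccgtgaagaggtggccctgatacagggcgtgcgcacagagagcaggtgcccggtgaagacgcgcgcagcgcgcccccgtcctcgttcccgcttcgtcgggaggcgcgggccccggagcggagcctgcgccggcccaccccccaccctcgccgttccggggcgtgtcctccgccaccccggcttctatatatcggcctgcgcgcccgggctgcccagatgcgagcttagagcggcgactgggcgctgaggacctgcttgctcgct
*Irs1*: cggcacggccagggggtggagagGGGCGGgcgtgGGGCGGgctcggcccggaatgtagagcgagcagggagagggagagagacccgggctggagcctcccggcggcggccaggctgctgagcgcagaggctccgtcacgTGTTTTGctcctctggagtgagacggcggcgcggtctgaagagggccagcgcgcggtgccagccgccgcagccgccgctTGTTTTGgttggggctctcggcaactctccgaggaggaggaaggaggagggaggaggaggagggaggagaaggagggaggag
The first motif searched was CAAAACA, the core of the insulin response element. The GC box was searched as GGGCGG. The TATA box was searched as TATAAA. Of the sequences that FOXO factors bind, GTAAACA was searched under the name FOXO core. No 2 of these matches overlapped.

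In the *Igfbp1* window CAAAACA stood once, 108 bases before the start. In the *Irs1* window it stood at 2 places, 111 and 32 bases before the start, both as its reverse complement TGTTTTG. The other 7 genes with a window lacked it, and 6.28% of the 32851 promoter windows held it. GC boxes, present in 35.7% of all windows, were found in *Igfbp2*, *Igfbp7*, *Igf1r* and *Irs1*, and a TATA box, present in 13.6%, in *Igfbp4* and *Igfbp6*. GTAAACA, the form searched as the FOXO core, was present in 3.65% of all windows and in none of the 9 genes. It is not the only sequence that FOXO factors can bind, so its absence does not mean that no window held a FOXO site. The windows also differed in CG dinucleotides. They numbered 8 in *Igfbp1*, 10 in *Igfbp5*, 8 in *Igfbp6*, and 18 and 14 in the 2 start sites of *Igfbp2*, against 37 in *Igfbp3*, 27 in *Igfbp4*, 33 in *Igfbp7*, 48 in *Igf1r* and 28 in *Irs1*, with a median of 7 over all windows. The 5 genes with the larger numbers had at least 137 counts in every library, and the 4 others at most 11. This split was made with the counts known, and no link between CG number and level was tested. The windows of those 4 genes were not low in CG among all windows, of which 51.35% to 70.28% had fewer. This is a description of 9 genes, and a motif match is a match of letters only.

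Total counts ranged from 29840366 to 38422243 per library. Levels are given as counts relative to library size (CPM), with the library sizes scaled by the trimmed mean of M-values (TMM) over all 11 libraries, and a floor of 3 counts per library was taken for detection, which covers counting error only. *Txndc5* had 287 to 430 counts in the KO, 3299 to 4046 in the WT and 5344 to 6723 in the KI libraries. Its log2 difference was -3.81 in KO vs. WT (SE 0.15, adjusted p = 4.09e-08, quasi-likelihood test of edgeR, Benjamini-Hochberg adjusted) and 0.24 in KI vs. WT (SE 0.12, adjusted p = 0.136 by the same test). Every KI library lay above every WT library, but the rise in the libraries labelled KI did not pass the test, and it did with library totals in place of TMM (0.57, adjusted p = 0.00623). The scaling moved many values here. A single newly assembled table entry took 11.3 to 17.1% of the counts in the WT, 4.32 to 6.44% in the KO and 4.82 to 9.12% in the KI libraries. With library totals the median log2 difference of all genes moved from -0.03 to 0.38 in KO vs. WT, from -0.02 to 0.30 in KI vs. WT and from 0.00 to 0.06 in KO vs. KI. Hepatocyte markers were present in all groups: of 10, all 10 were over the floor in every KO library and 9 in every WT and every KI library.

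Of the 10 genes, 6 had enough counts to be tested in every comparison: *Igfbp3*, *Igfbp4*, *Igfbp7*, *Igf1r*, *Insr* and *Irs1*, none with fewer than 137 counts in any library. *Igfbp1*, *Igfbp2*, *Igfbp5* and *Igfbp6* never had more than 11 counts. *Igfbp1* had 6 counts in KI 5 and 0 in the other 10 libraries. *Igfbp2* had 3 counts in KI 6 and 0 in the other 10. The hepatocyte carriers were thus at or near the floor in KO, WT and KI cells alike. *Igfbp5*, whose product binds to matrix and bone, had 2 counts in KO 5 and 0 in the other KO libraries, 0 in the 3 WT libraries, and 4, 2, 2 and 0 counts in the KI libraries. *Igfbp6*, whose product prefers IGF2, had 4, 2, 0 and 8 counts in the KO libraries, 0 in every WT library and 7, 11, 8 and 6 in the KI libraries. Against the floor of 3 counts in each WT library, *Igfbp6* was at least 1.85-fold higher in the KI than in the WT cells, and it was left out of the edgeR test by the filter on low counts. DESeq2's test called it (adjusted p = 0.022), and edgeR without the filter did not (adjusted p = 0.0542).

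**Figure D1:**
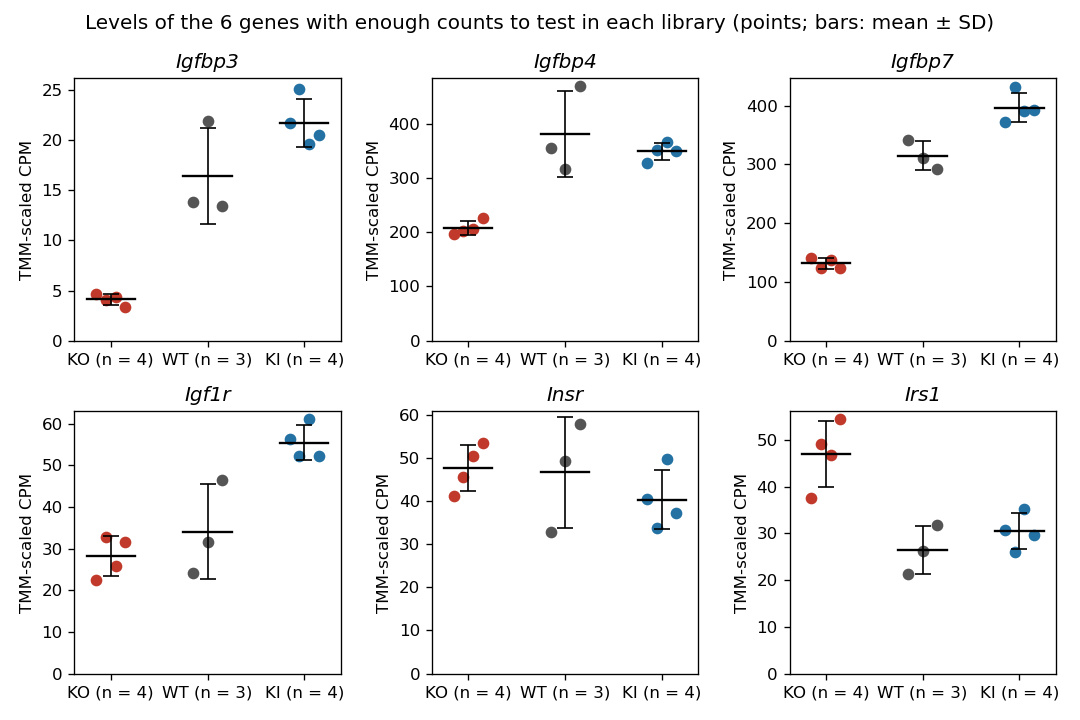
Levels of the 6 tested genes in TMM-scaled CPM, 1 panel per gene with its own linear axis from 0, with 1 point per library by group (KO, n = 4; WT, n = 3; KI, n = 4) and lines for the mean ± SD. The KO points of *Igfbp3*, *Igfbp4* and *Igfbp7* lie under all WT and KI points, those of *Irs1* lie above them, and the KI points of *Igf1r* lie above all others.

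The KO cells differed from the WT cells in the detected binding proteins and in the adaptor, while neither receptor passed the test. *Igfbp3*, *Igfbp4* and *Igfbp7* were lower in the KO cells and *Irs1* was higher, so that 4 of the 6 genes tested passed an adjusted p of 0.05. In the same comparison 55.1% of the 13359 genes tested passed, 28.4% lower and 26.7% higher. The groups did not overlap for the same 4 genes, against 55.3% of all genes, 28.2% higher and 27.1% lower. With library totals 72.8% of all calls were higher in the KO cells, against 48.4% with TMM. In the KI cells *Igf1r* alone of the 6 passed against WT, and was higher, where 42.3% of 13534 genes passed, 21.2% higher and 21.0% lower. The groups did not overlap for *Igf1r* and *Igfbp7*, 2 of 6 and both higher, against 44.7% of all genes, 23.4% higher and 21.3% lower. Library totals raised the share of higher calls in that comparison from 50.2% to 76.3%. KO and KI cells compared directly differed in 5 of 6 genes, all but *Insr*, where 54.0% of 13269 genes passed, 27.0% in each direction. The groups did not overlap for the same 5, 1 higher and 4 lower in KO, against 48.6% of all genes, 24.2% higher and 24.4% lower. Over only 6 genes, these counts stood above the background in both comparisons with KO and below it in KI vs. WT, and nothing is read from them. Both differences from WT rest on the same 3 WT libraries, so they are set side by side here. Because the libraries are of bulk RNA, fewer cells that express a gene and less RNA per cell cannot be told apart.

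*Igfbp3* fell most of the 6 genes. It stood at 4.65, 4.06, 4.35 and 3.36 CPM in the KO libraries, at 13.9, 21.9 and 13.5 CPM in the WT libraries and at 21.7, 25.1, 19.6 and 20.6 CPM in the KI libraries. All 4 KO libraries lay far below the others, while WT 7 lay among the KI libraries. The means were 4.10 ± 0.554 CPM in KO (SD, n = 4), 16.4 ± 4.78 in WT (SD, n = 3) and 21.8 ± 2.39 in KI (SD, n = 4). In KO vs. WT *Igfbp3* was 4.03-fold lower (log2 -2.01, SE 0.22, adjusted p = 2.47e-05, quasi-likelihood test of edgeR, Benjamini-Hochberg adjusted), and 8.85% of all genes tested had a larger absolute difference. In KO vs. KI it was 5.24-fold lower (log2 -2.39, SE 0.14, adjusted p = 2.19e-09, same edgeR test). In KI vs. WT the difference of 0.40 on the log2 scale did not pass (SE 0.19, 95% interval -0.02 to 0.82, adjusted p = 0.116, same edgeR test). It passed without WT 7 (0.67, adjusted p = 0.0161) and with library totals (0.73, adjusted p = 0.0118). Genes on chromosome 11, where *Igfbp3* and *Igfbp4* lie, had a median log2 difference of -0.34 in KO vs. WT, -0.27 in KO vs. KI and -0.09 in KI vs. WT, whose part in the results for these genes was not tested.

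*Igfbp4*, whose product mostly holds IGF back, was measured at 198, 203, 207 and 227 CPM in the KO libraries, at 356, 318 and 471 CPM in the WT libraries and at 329, 352, 367 and 351 CPM in the KI libraries. The KO libraries lay together and under the rest, and the KI libraries fell inside the range of the WT libraries. Against WT, *Igfbp4* in KO was 1.85-fold lower (log2 -0.89, SE 0.15, adjusted p = 0.000422, quasi-likelihood test of edgeR, Benjamini-Hochberg adjusted). In KO vs. KI it was 1.67-fold lower (log2 -0.74, SE 0.08, adjusted p = 2.39e-06, same edgeR test). The KI vs. WT difference of -0.12 (SE 0.15, 95% interval -0.46 to 0.21, adjusted p = 0.541, same edgeR test) was within the spread of the libraries and changed sign to 0.18 with library totals and to 0.05 without WT 8.

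*Igfbp7*, the matrix-associated member, stood at 141, 123, 138 and 123 CPM in the KO libraries, at 342, 311 and 292 CPM in the WT libraries and at 372, 431, 391 and 393 CPM in the KI libraries. The 3 groups did not overlap, and their order was KO, WT, KI. KO cells had 2.43-fold less *Igfbp7* than WT cells (log2 -1.28, SE 0.12, adjusted p = 8.34e-06, quasi-likelihood test of edgeR, Benjamini-Hochberg adjusted). In KO vs. KI it was 3.01-fold lower (log2 -1.59, SE 0.09, adjusted p = 8.68e-10, same edgeR test), the lowest adjusted p of the 6 genes. The KI vs. WT difference of 0.33 (SE 0.14, 95% interval 0.04 to 0.63, adjusted p = 0.0647, same edgeR test) missed the threshold. It passed with library totals (0.67, adjusted p = 0.0013), in DESeq2's test (0.31, adjusted p = 0.0317), in a fit over all 11 libraries (0.33, adjusted p = 0.0209) and without WT 5-6 (0.40, adjusted p = 0.0446). The median of all genes on chromosome 5 was 0.01 in KO vs. WT, and its part in the results for *Igfbp7* was not tested.

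*Igf1r*, the receptor of IGF1, stood at 22.4, 32.8, 25.9 and 31.6 CPM in the KO libraries, at 24.1, 31.5 and 46.5 CPM in the WT libraries and at 56.3, 52.2, 61.0 and 52.2 CPM in the KI libraries. All KI libraries lay above all KO and WT libraries, and KO and WT overlapped. In KI vs. WT *Igf1r* was 1.62-fold higher (log2 0.70, SE 0.19, adjusted p = 0.0116, quasi-likelihood test of edgeR, Benjamini-Hochberg adjusted), a call that was lost without WT 7 (0.65, adjusted p = 0.0557). In KO vs. KI it was 1.96-fold lower (log2 -0.97, SE 0.12, adjusted p = 8.27e-06, same edgeR test). The KO vs. WT difference of -0.29 did not pass (SE 0.22, 95% interval -0.77 to 0.18, adjusted p = 0.272, same edgeR test), and it changed sign to 0.09 with library totals and to 0.03 without WT 8. Genes of chromosome 7, which holds *Igf1r*, had a median of 0.53 in KO vs. WT, 0.10 in KI vs. WT and 0.43 in KO vs. KI. The part of the chromosome in the results for *Igf1r* was not tested.

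*Insr*, the insulin receptor, stood at 41.3, 45.6, 50.5 and 53.6 CPM in the KO libraries, at 32.8, 49.3 and 58.1 CPM in the WT libraries and at 40.5, 33.8, 49.7 and 37.2 CPM in the KI libraries. All 3 groups overlapped. The WT libraries held both the lowest and the highest value of the 11. In KO vs. WT the log2 difference was 0.01 (SE 0.19, 95% interval -0.40 to 0.42, adjusted p = 0.969, quasi-likelihood test of edgeR, Benjamini-Hochberg adjusted), and the sign changed with DESeq2's size factors (-0.01). In KI vs. WT it was -0.21 (SE 0.20, 95% interval -0.64 to 0.21, adjusted p = 0.402, same edgeR test). In KO vs. KI it was 0.25 (SE 0.12, 95% interval -0.02 to 0.51, adjusted p = 0.106, same edgeR test), and it passed without KI 7 (0.37, adjusted p = 0.0141).

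*Irs1*, the adaptor that both receptors phosphorylate, stood at 37.5, 49.1, 46.7 and 54.5 CPM in the KO libraries, at 21.4, 26.1 and 31.8 CPM in the WT libraries and at 30.7, 26.0, 35.3 and 29.7 CPM in the KI libraries. Every KO library lay above every WT and KI library, and WT and KI overlapped. KO cells had 1.75-fold more *Irs1* than WT cells (log2 0.81, SE 0.17, adjusted p = 0.00239, quasi-likelihood test of edgeR, Benjamini-Hochberg adjusted). In KO vs. KI it was 1.55-fold higher (log2 0.63, SE 0.12, adjusted p = 0.000573, same edgeR test). The KI vs. WT difference of 0.20 did not pass (SE 0.17, 95% interval -0.16 to 0.56, adjusted p = 0.36, same edgeR test). *Irs1*, *Insr* and *Igf1r* have long transcripts, with exons of 9.144, 13.746 and 16.791 kb in union. Genes of 9000 bp or more had a median of 0.13 in KO vs. WT, against -0.01 in shorter genes, and of 0.11 in KI vs. WT, against 0.00. The part of length in the *Irs1* and *Igf1r* calls was not tested.

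**Figure D2:**
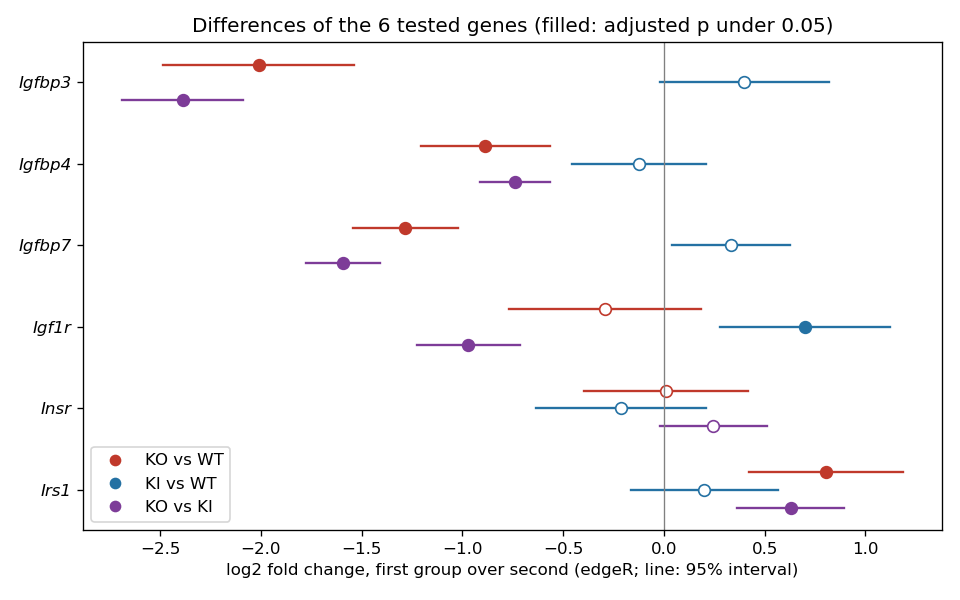
Log2 differences of the 6 tested genes in KO vs. WT, KI vs. WT and KO vs. KI, with bars for the 95% interval. Filled points have an adjusted p under 0.05; the 3 binding proteins lie below 0 in both comparisons with KO, and *Irs1* lies above 0 in both.

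Divided by the length of their exons, the levels could be set in order within each group. In the KO cells *Igfbp7* was highest at 108.5 CPM per kb, followed by *Igfbp4* at 47.3, *Irs1* at 5.13, *Insr* at 3.47, *Igf1r* at 1.68 and *Igfbp3* at 1.31. The last pair overlapped between libraries. In the WT cells the order was *Igfbp7* at 260.5 CPM per kb, *Igfbp4* at 86.4, *Igfbp3* at 5.25, *Insr* at 3.40, *Irs1* at 2.89 and *Igf1r* at 2.03, of which *Insr* overlapped with *Irs1* and *Irs1* with *Igf1r*. In the KI cells it was *Igfbp7* at 328 CPM per kb, *Igfbp4* at 79.2, *Igfbp3* at 6.95, *Irs1* at 3.33, *Igf1r* at 3.30 and *Insr* at 2.93, and the last 3 overlapped with their neighbours. *Igfbp3* thus came next after *Igfbp4* in WT and KI cells and last in KO cells.

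Summed per kb over the 7 binding proteins, the transcript pool was 157 ± 6.66 CPM per kb in KO (SD, n = 4), 352 ± 15.8 in WT (SD, n = 3) and 414 ± 22.6 in KI cells (SD, n = 4), and the libraries of the 3 groups did not overlap. *Igfbp7* made up 69.0 ± 2.44% of this pool in KO (n = 4), 74.0 ± 4.71% in WT (n = 3) and 79.1 ± 0.79% in KI cells (n = 4). *Igfbp4* made up 30.1 ± 2.50%, 24.5 ± 4.96% and 19.1 ± 0.917% in the same order, and *Igfbp3* 0.833 ± 0.0965%, 1.504 ± 0.504% and 1.68 ± 0.140%. The pool therefore consisted almost wholly of *Igfbp7* and *Igfbp4* transcripts in all groups. The ratio of *Igf1r* to *Insr*, each per kb, was 0.421 to 0.588 in the KO, 0.524 to 0.656 in the WT and 1.00 to 1.26 in the KI libraries, so the KI libraries stood apart. The ratio of *Irs1* to *Insr* per kb was 1.37 to 1.62 in the KO, 0.798 to 0.982 in the WT and 1.07 to 1.20 in the KI libraries, and the 3 groups did not overlap. Within a library these ratios do not depend on the scaling, and no test was made of them.

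**Figure D3:**
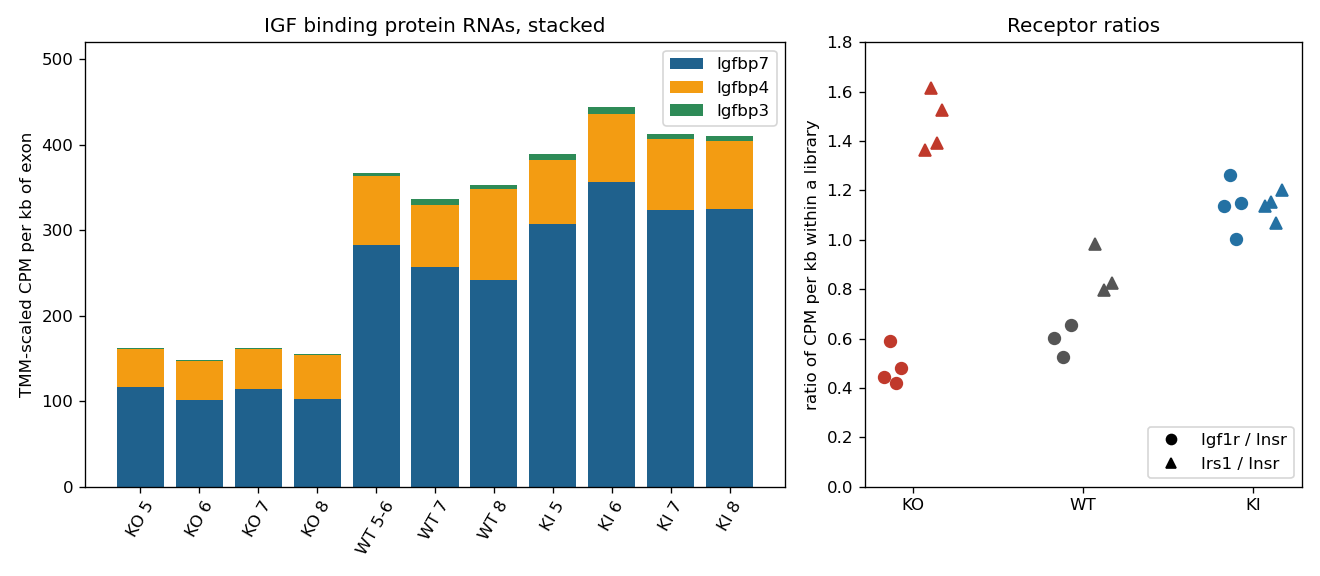
Summed binding protein transcripts per library in CPM per kb, split by gene, and the ratios of *Igf1r* and of *Irs1* to *Insr* per kb in each library. The pool lies between 149 and 163 CPM per kb in KO, 336 and 368 in WT and 389 and 444 in KI libraries.

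The genes whose levels ran most like each member over the 11 libraries, by Pearson's r of log2(CPM + 0.1), are given as a description, with the group differences included in it. They were *Ubxn2a* and *Gpr63* for *Igfbp3* (r = 0.989 for both), *Acadl* (0.991) and *Thra* (0.986) for *Igfbp4*, *Hoxb6* and *Plscr1* for *Igfbp7* (0.994 for both), *Afap1* (0.979) and *Chd3* (0.978) for *Igf1r*, *Pdpr* (0.966) and *Myo6* (0.953) for *Insr*, and *Herc2* (0.993) and *Smg1* (0.989) for *Irs1*. *Acadl* stood at 104 CPM in KO, 178 in WT and 171 in KI cells, and *Herc2* at 159.6, 59.0 and 72.9. *Gpr63* and *Hoxb6* were at 0 in all KO libraries, so their likeness rests on low counts.

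Among 12 genes of IGF ligands and their handling, 7 were tested. In KO vs. WT 2 were higher and 2 lower (median log2 -0.13), in KI vs. WT 1 higher and 1 lower (-0.10), and in KO vs. KI 3 higher and 1 lower (0.15). The calls were 57.1%, 28.6% and 57.1% of the genes tested, against 55.1%, 42.3% and 54.0% over all genes. *Igf1*, the ligand itself, had 0 to 6 counts in the KO, 33 to 36 in the WT and 34 to 52 in the KI libraries. It was lower in KO vs. WT (log2 -3.16, adjusted p = 0.000914, quasi-likelihood test of edgeR, Benjamini-Hochberg adjusted) and in KO vs. KI (-2.98, adjusted p = 0.00021), on few counts: DESeq2's test gave -3.82 and limma on log2(CPM + 1) gave -1.11 in KO vs. WT. *Igfals*, which encodes the acid-labile subunit that joins IGF and IGFBP3 in plasma, averaged 0.218 CPM in KO, 4.27 in WT and 0.593 in KI cells, lower than WT in both edited lines (KO -3.94, adjusted p = 0.000132; KI -2.71, adjusted p = 0.000162; same edgeR test). For *Igfals* in KO vs. WT these methods gave -4.31 and -2.10. *Igf2r*, the receptor that clears IGF2, averaged 111 CPM in KO, 47.6 in WT and 69.7 in KI cells (KO vs. WT 1.20, adjusted p = 0.00101, same edgeR test). It was the 1 gene called higher in KI vs. WT (0.55, adjusted p = 0.0498, same edgeR test), with overlapping groups, and this call was lost in 5 of 7 fits that left out 1 library, namely without WT 5-6, WT 7, KI 5, KI 6 or KI 7 (0.40 to 0.59), and with DESeq2's size factors (0.53), the replicate block (0.62) and single table entries (0.55). *Igf2bp3*, an RNA-binding protein named for the *Igf2* message, was higher in KO vs. WT (1.57, adjusted p = 9.55e-05, same edgeR test) and in KO vs. KI (1.26, adjusted p = 3.61e-08). *Ins1* and *Ins2* had 0 counts in every library.

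Of 11 proteases that cut binding proteins and inhibitors of these, 6 were tested, and 5 were lower in KO vs. WT (median -2.30), 4 lower and 1 higher in KI vs. WT (median -1.17) and 4 lower in KO vs. KI (median -1.89). Over all genes 28.4%, 21.0% and 27.0% were lower in these comparisons. The medians of all genes were -0.03, -0.02 and 0.00. *Ctsd*, by far the most abundant gene of the list, averaged 1258 CPM in KO, 1560 in WT and 1456 in KI cells. It was not called in KO vs. WT (-0.33, adjusted p = 0.124), KI vs. WT (-0.10, adjusted p = 0.672) or KO vs. KI (-0.21, adjusted p = 0.0756), by edgeR's quasi-likelihood test. Because the list mixes proteases with inhibitors of proteases, its median is no measure of cleavage. *Stc2*, whose product inhibits the IGFBP4 protease PAPPA, averaged 0.0787 CPM in KO, 10.5 in WT and 5.57 in KI cells, with a KO vs. WT difference of -6.27 (adjusted p = 3.71e-06, quasi-likelihood test of edgeR, Benjamini-Hochberg adjusted). It was also lower in KI vs. WT (-0.91, adjusted p = 0.00371, same edgeR test), a call lost with library totals (-0.59, adjusted p = 0.0528). *Stc1*, a related inhibitor, averaged 0.578, 5.30 and 1.92 CPM (KO vs. WT -3.08, adjusted p = 5.01e-06; KI vs. WT -1.43, adjusted p = 0.00113; same edgeR test). *Mmp7*, a secreted metalloprotease, averaged 0.0991, 32.5 and 5.46 CPM (KO vs. WT -7.69, adjusted p = 2.43e-07; KI vs. WT -2.56, adjusted p = 3.82e-06; same edgeR test). *Adam12*, a metalloprotease that cuts IGFBP3, averaged 6.57, 12.5 and 29.2 CPM and was lower in KO (-0.94, adjusted p = 0.000715) and higher in KI (1.22, adjusted p = 0.00022) than in WT by the same edgeR test. The KO libraries held 0 to 9 counts of *Mmp7* and 0 to 7 of *Stc2*, and the size of such differences depends on the method. In KO vs. WT *Mmp7* was -8.41 in DESeq2's test and -4.88 in limma on log2(CPM + 1), *Stc2* was -7.12 and -3.38, and *Stc1* -3.24 and -1.99. *Pappa* and *Pappa2*, the proteases that the stanniocalcins inhibit, had 0 counts in every library.

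Of 17 adaptors and negative regulators of the receptors 14 were tested. KO vs. WT had 3 higher and 3 lower (median 0.14), in KI vs. WT 4 higher and 1 lower (0.21) and in KO vs. KI 2 higher and 4 lower (-0.26). As shares of the genes tested these were 42.9%, 35.7% and 42.9%, under the 55.1%, 42.3% and 54.0% of all genes. *Irs2*, the other main adaptor of hepatocytes, averaged 19.96 CPM in KO, 20.3 in WT and 37.98 in KI cells. It was higher in KI vs. WT (0.90, adjusted p = 0.000645, quasi-likelihood test of edgeR, Benjamini-Hochberg adjusted), and its KO vs. WT difference of -0.05 did not pass (adjusted p = 0.818) and turned positive with library totals (0.36). In the same comparisons *Irs1* was higher in KO and not called in KI. *Ceacam1*, which promotes the clearance of insulin, averaged 5.28, 3.21 and 10.4 CPM and was higher in KI vs. WT (1.68, adjusted p = 5.79e-05, same edgeR test). It was also higher in KO vs. WT (0.69, adjusted p = 0.0208, same edgeR test), a call lost in 3 of 7 fits that left out 1 library. *Grb2*, which links receptors to RAS, was lower in KO vs. WT (-0.66, adjusted p = 0.00114, same edgeR test), a call lost with library totals (-0.27, adjusted p = 0.216). *Sh2b1*, which aids signalling from the receptors, was higher in KO vs. WT (0.70, adjusted p = 0.00374, same edgeR test).

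All 22 genes of the arm from phosphatidylinositol 3-kinase to mTOR were tested. KO vs. WT had 7 higher and 5 lower (median 0.12), in KI vs. WT 4 higher and 4 lower (0.04) and in KO vs. KI 6 higher and 5 lower (0.08). The shares called were 54.5%, 36.4% and 50%, where 55.1%, 42.3% and 54.0% of all genes were called. *Akt2*, the main AKT kinase of liver, averaged 145 CPM in KO, 69.0 in WT and 81.2 in KI cells and was higher in KO vs. WT (1.05, adjusted p = 2.97e-05, quasi-likelihood test of edgeR, Benjamini-Hochberg adjusted). *Akt1* averaged 105, 102 and 158.5 CPM and was higher in KI vs. WT (0.64, adjusted p = 0.00155, same edgeR test), with 0.03 in KO vs. WT (adjusted p = 0.841), a difference that passed with library totals (0.43, adjusted p = 0.0227). *Rps6kb1*, a kinase under mTOR, was lower in KO vs. WT (-1.01, adjusted p = 0.000124, same edgeR test). It was also lower in KI vs. WT (-0.54, adjusted p = 0.0143, same edgeR test), a call lost with library totals (-0.20, adjusted p = 0.323). *Pik3r3*, a regulatory subunit of the lipid kinase, was higher in KI vs. WT (1.10, adjusted p = 0.00025, same edgeR test) and in KO vs. WT (0.55, adjusted p = 0.0137).

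Of 17 FOXO factors and liver targets 15 were tested. KO vs. WT had 3 higher and 3 lower (median -0.02), in KI vs. WT 2 higher and 5 lower (-0.02) and in KO vs. KI 7 higher and 4 lower (-0.02). That is 40%, 46.7% and 73.3% of the genes tested, beside 55.1%, 42.3% and 54.0% of all genes. *Foxo1* averaged 18.7 CPM in KO, 16.6 in WT and 8.50 in KI cells and was lower in KI vs. WT (-0.96, adjusted p = 0.00443, quasi-likelihood test of edgeR, Benjamini-Hochberg adjusted), a call lost with library totals (-0.67, adjusted p = 0.071). *Pdk4*, which spares glucose in fasting, averaged 12.3, 13.9 and 3.91 CPM and was also lower in KI vs. WT (-1.82, adjusted p = 0.000439, same edgeR test). *Klf15*, a factor of fasting metabolism, averaged 57.0, 31.0 and 23.7 CPM and was higher in KO vs. WT (0.86, adjusted p = 0.000335, same edgeR test). Of the other genes called in KO vs. WT, *Foxo6* (1.66) and *Bcl6* (1.37) were higher. *Sesn1* (-1.02), *Ccng2* (-0.72) and *Foxo4* (-0.71) were lower there. Of the others called in KI vs. WT, *Foxo6* (0.64) and *Sesn3* (0.57) were higher. *Sesn1* (-0.73), *Foxo3* (-0.68) and *Gadd45a* (-0.44) were lower in that comparison. *Pck1*, the classical target of FOXO1 in gluconeogenesis, had 0 counts in every library, as *Igfbp1* had in all but 1. The lists were chosen with earlier results of these data known, and no test was made of a list as a whole.

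**Figure D4:**
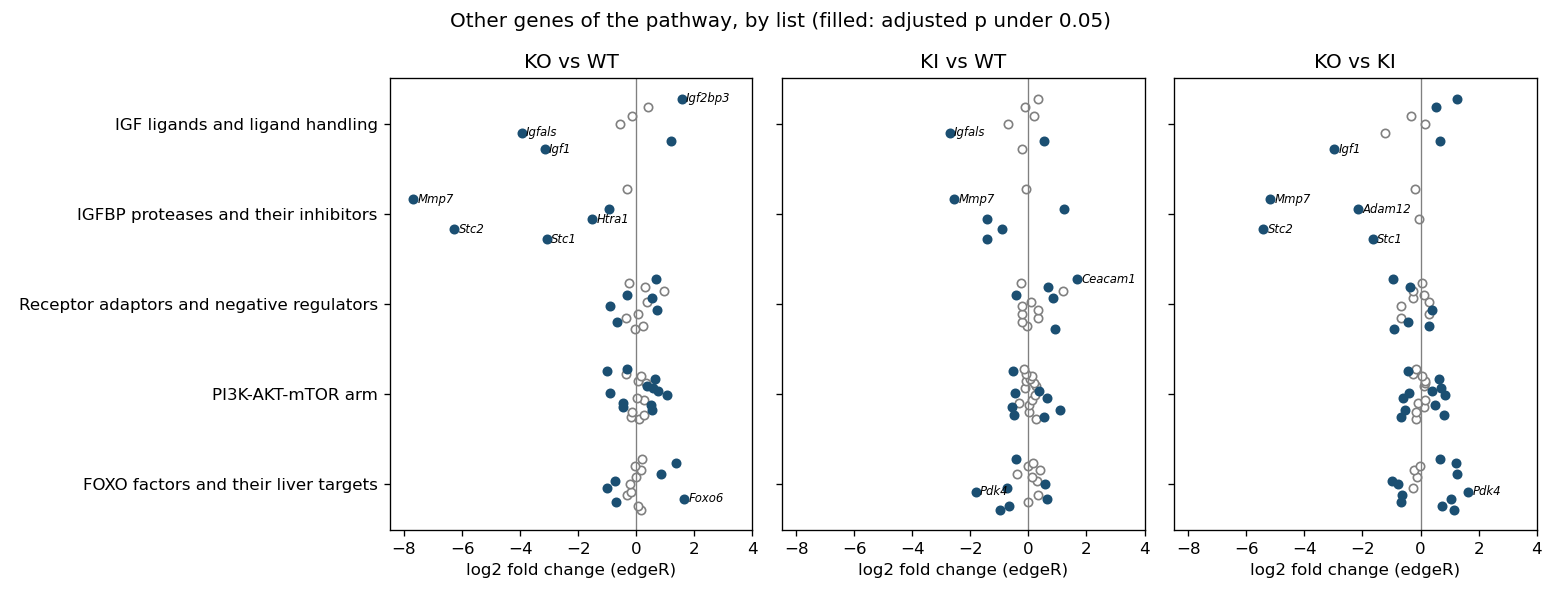
Log2 differences of each tested gene of the 5 pathway lists in KO vs. WT, KI vs. WT and KO vs. KI, with 1 row of points per list, filled for an adjusted p under 0.05, and called genes beyond 1.5 in either direction named. The proteases and their inhibitors lie lowest, with medians of -2.30, -1.17 and -1.89, and the other medians lie between -0.26 and 0.21.

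Markers of other liver cells were read beside these results. The summed level of 10 hepatocyte markers was 9747 to 11591 CPM in the KO, 7383 to 9429 in the WT and 8561 to 10139 in the KI libraries. In KO vs. WT 5 of these markers were higher and 3 lower, where 26.7% of all genes were higher and 28.4% lower. *Alb* averaged 4114 CPM in KO, 512.6 in WT and 245.7 in KI cells. Its KO vs. WT difference was 2.99 (adjusted p = 5.68e-06, quasi-likelihood test of edgeR). *Apoa1* (3.77), *Cps1* (3.19, on 0 to 16 counts in WT), *Hnf4a* (1.35) and *Apob* (0.66) were also higher. The 3 lower were *Trf* (-1.16), *Fgb* (-1.03) and *Ttr* (-0.93). *Trf* averaged 1346, 2974 and 1409 CPM, so the sum hides part of the rise of *Alb*. These markers thus moved in both directions, by unequal amounts. The summed level of 7 cholangiocyte markers was 1373 to 1530 CPM in the KO, 3049 to 4417 in the WT and 2643 to 3128 in the KI libraries, where *Epcam* was at or under the floor in all groups and *Cftr* in the KO libraries. Of its 5 tested genes, 4 were lower and *Krt19* was higher in KO vs. WT (0.49, adjusted p = 0.0117, same edgeR test). The shares over all genes in that comparison are those given above. *Spp1*, named after its values were seen, made up most of the difference in the sum. Without it the sum was 1120.5 to 1247 CPM in the KO, 901 to 1129 in the WT and 748 to 1022 in the KI libraries, with KO and WT overlapping. The part of these markers in the results for *Igfbp3*, *Igfbp4* and *Igfbp7* was not tested. Of 8 stellate and fibroblast markers, *Col1a2*, *Col3a1*, *Pdgfrb* and *Lrat* were at or under the floor in all groups, and the summed level was at most 1.24 CPM in any library. Of 6 macrophage and leukocyte markers *Adgre1* and *Clec4f* were at or under the floor in all groups, with sums of 376 to 464 CPM in the KO, 481 to 669 in the WT and 374 to 422 in the KI libraries. *Cd14*, named after its values were seen, made up nearly all of these sums. It averaged 411.8 CPM in KO, 556.2 in WT and 383 in KI cells, so the sums describe this gene alone. The sum of 6 endothelial markers was at most 0.425 CPM.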

How the data were processed

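RNA of AML12 cells was read out in 4 KO, 3 WT and 4 KI libraries. The authors deposited read counts per gene without normalization in a table of 26472 lines, 26462 of them used here; 10 had broken fields. The sequencing provider cleaned, mapped and counted the reads. The submitters' processing notes name Bowtie2, HISAT2, StringTie and TopHat2, and the genome build is not given in the sources used here. Columns of FPKM, whose decimal points were lost, and of the authors' own log2 fold changes and adjusted p-values were not used.

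Counts of entries with the same symbol were summed to 24849 genes. R 4.3.3 with edgeR 4.0.16 was used for the tests: edgeR's filter on low counts, TMM scaling and the quasi-likelihood test on the libraries of the 2 groups compared, with a prior count of 2 and Benjamini-Hochberg adjustment over all genes tested. An adjusted p under 0.05 was called. The test was tried on simulated data with few changed genes, balanced in direction, and the same spread setting for all genes. The data differ from this, since more genes were called than not in both comparisons with KO. The simulation therefore does not check the calls or the scaling here. Means and SDs are of CPM scaled over all 11 libraries. The total counts were 30380360 to 38422243 in the KO, 29840366 to 30364098 in the WT and 32360709 to 35335070 in the KI libraries, and no 2 libraries of a group agreed within counting noise.

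The members and lists were chosen with earlier results of these data known. Named genes were the 10 members, *Txndc5*, up to 3 higher and 3 lower genes per list and comparison with the largest called differences and no overlap of groups, genes of the lists at or under 3 counts in 1 group only, and the 2 genes most like each member. The genes printed from these, and those named at 0 counts or as other list members, were picked after their values were seen. Results for some genes of the lists are not reported here. Gene places and exon lengths are from GENCODE M21 (GRCm38), matched by symbol, and promoters from RefSeq (GRCm38.p6).

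Alternatives were DESeq2 1.42.0 size factors, library totals, DESeq2's test, limma 3.58.1 on log2(CPM + 1), no filter, all 11 libraries in 1 fit, leaving out each library, a replicate block and single table entries. Library totals that omit both of the largest newly assembled entries were added after seeing the data. Deviations from the group means in same-numbered libraries correlated with r from -0.19 to 0.21 over 12 pairs. Between KO and WT libraries the highest r were 0.21 (KO 8 with WT 8) and 0.16 (KO 5 with WT 5-6), both of same-numbered libraries. The main fits did not use the numbers as pairs, and the replicate block did.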

Additional observations from a re-analysis of the deposited data

Results flagged for a closer look

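Of 62 sets of 4 libraries checked, 5 held a library whose distance to its nearest neighbour took up most of the range, where chance gives about 3.1. For *Igfbp1* it was KI 5 (6 counts, the other KI libraries at 0, a gap of 1.000 of the range), for *Igfbp2* KI 6 (3 counts against 0, 1.000) and for *Igfbp5* KO 5 (2 counts against 0, 1.000). These 3 cases are of counts near or under the floor. With the other libraries of the group at 0, a gap of 1.000 was fixed in advance, so the chance number does not cover them. *Akt1* stood at 110 CPM in KO 8 against 103 to 104 in the other KO libraries (0.834 of the range), and *Rps6kb1* at 79.9 CPM in KI 8 against 63.6 to 64.9 in the other KI libraries (0.926).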

How the results depend on the processing

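The calls of *Igfbp3*, *Igfbp4*, *Igfbp7* and *Irs1* in KO vs. WT, and of these and *Igf1r* in KO vs. KI, kept their direction under every alternative run. The number of members called in KI vs. WT rose from 1 to 3 with library totals, with library totals without the 2 newly assembled entries and in DESeq2's test (*Igfbp6* with *Igfbp7* and *Igf1r*), and to 2 with all 11 libraries in 1 fit. Leaving out 1 library at a time, 4 members were called in KO vs. WT, 1 to 2 in KI vs. WT and 5 to 6 in KO vs. KI, and 6161 to 8449, 4276 to 6969 and 6515 to 7230 of all genes. The replicate block gave 4, 1 and 5 members and 8183, 4891 and 6453 genes, against 7362, 5722 and 7171. Differences that did not pass changed sign. With library totals these were *Igf1r* (0.09), *Irs2* (0.36) and *Pdk4* (0.21) in KO vs. WT, and *Igfbp4* (0.18), *Insr* (0.09), *Igf1* (0.10) and *Grb2* (0.09) in KI vs. WT. With totals without the 2 entries they were *Irs2* (0.17), *Pdk4* (0.02) and, in KI vs. WT, *Igfbp4* (0.05). *Insr* in KO vs. WT was -0.01 with DESeq2's size factors and in its test. With 1 library omitted at a time, *Insr* ran from -0.17 to 0.23, *Igf1r* from -0.47 to 0.03 and *Irs2* from -0.13 to 0.07 in KO vs. WT, and *Igfbp4* from -0.24 to 0.05 in KI vs. WT. The cause was not tested. The counts of *Igfbp1*, *Igfbp2*, *Igfbp5* and *Igfbp6* lie near or under the floor, which limits what can be said of them. Whether depth or absence of the RNA accounts for this was not tested.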
